A study of Mus musculus with 12 samples.

Results

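The mouse genes of cholesterol synthesis described here are Hmgcs1, Sqle, Idi1, Fdft1 and Lss, which encode enzymes of the pathway, and Insig1 and Srebf2, which encode proteins that control it. They were chosen by name, with earlier results of these data known. Each had 1 transcript cluster (the set of probes that reads 1 gene on the array) that the platform's probe table pairs with that symbol alone, so all 7 were measured, among 30084 genes with such a cluster. The low-density lipoprotein receptor gene is not analysed here.

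Cells make cholesterol from acetyl-CoA by way of mevalonate, farnesyl pyrophosphate, squalene and lanosterol. Srebf2 encodes SREBP2, a transcription factor held in the endoplasmic reticulum membrane. When sterols are scarce the protein SCAP escorts it to the Golgi, where proteases free the part that enters the nucleus and raises transcription of the enzymes of the pathway. Insig1 encodes a protein that retains the SCAP and SREBP complex when sterols are plentiful, and the gene is itself a target of SREBP.

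RNA came from quadriceps of male utrn+/-;mdx mice on C57BL/10, aged 6 weeks, which lack dystrophin through the mdx mutation and have 1 mutant copy of the utrophin gene. There were 3 mice, each on its own array, in each of 4 groups, 12 arrays in all: prednisolone, a glucocorticoid, at 1.5 mg/kg/day in drinking water; spironolactone at 100 mg/kg/day plus lisinopril at 20 mg/kg/day; eplerenone at 200 mg/kg/day plus lisinopril at 20 mg/kg/day; and untreated mice on normal chow. Spironolactone and eplerenone block the mineralocorticoid receptor, and lisinopril inhibits angiotensin-converting enzyme. Both combinations came in medicated pellets, all treatments ran from 4 to 6 weeks of age, and neither healthy mice nor mice on pellets without drug were analysed here, so effects of pellets and drugs cannot be told apart. Values are the deposited log2 signals, and a difference is between log2 group means, with n = 3 arrays per group. Skeletal muscle markers had a mean log2 signal of 18.8 to 19.1 on the 12 arrays, with all 10 of 10 listed markers measured. Acta1, Myh4, Mylpf and Atp2a1 each ranged over only 0.0197 near the top of the scale. The narrow range of the mean therefore does not show equal muscle RNA. P-values describe the spread between these mice. In whole muscle, a lower signal from fewer cells of a type and from less RNA per cell cannot be told apart.

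The promoters of the genes that showed the largest positive differences, Insig1 and Hmgcs1, are shown because SREBP2 acts through short DNA motifs, the sterol regulatory elements. RefSeq promoters (mouse build GRCm38.p6) matched 5 of the 7 genes, with Sqle and Fdft1 unmatched. Each sequence holds the 250 bases before the annotated start on the + strand. The capitals mark matches to TCACNCCAC, or to its last 8 letters CACNCCAC, on either strand.
Hmgcs1 chr13:119690101-119690350: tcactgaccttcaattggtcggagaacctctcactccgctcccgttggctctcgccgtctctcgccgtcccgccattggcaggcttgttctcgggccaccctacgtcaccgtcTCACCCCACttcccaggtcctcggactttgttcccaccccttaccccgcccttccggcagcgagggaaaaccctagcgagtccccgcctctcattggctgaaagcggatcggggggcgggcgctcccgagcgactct
Insig1 chr5:28071162-28071411: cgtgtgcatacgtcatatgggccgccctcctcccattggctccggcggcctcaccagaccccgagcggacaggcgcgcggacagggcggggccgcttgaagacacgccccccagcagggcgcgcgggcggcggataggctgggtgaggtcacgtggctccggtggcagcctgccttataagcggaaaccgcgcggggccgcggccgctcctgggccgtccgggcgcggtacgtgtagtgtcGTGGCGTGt
In Hmgcs1 the longer motif matched on the + strand, 137 bases before the start, and the shorter motif lies within it. In Insig1 only the shorter motif matched, on the - strand, 9 bases before the start. Promoters of Idi1, Lss and Srebf2 held neither. The longer motif was in 1.05% of all 32851 promoters of this length and the shorter in 5.29%. The letters CCAAT, the box bound by NF-Y, and GGGCGG, the GC box bound by Sp1, were each found on 1 strand or the other in all 5 matched promoters, against 33.8% and 32.7% of all promoters. CCAAT occurred 3 times in Hmgcs1, 2 times in Idi1 and 1 time each in Lss, Insig1 and Srebf2. A match of letters is a description and shows no binding.

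None of the 7 genes passed the test against untreated muscle in any treatment. The count was 0 of 7 for prednisolone, where 6.39% of all 30412 tested clusters passed, 0 of 7 for spironolactone plus lisinopril, where 0.0822% passed, and 0 of 7 for eplerenone plus lisinopril, where 0.0296% passed (limma, Benjamini-Hochberg adjusted p under 0.05 over all clusters). An unadjusted p under 0.05 was reached by 1, 2 and 0 of the 7 in these comparisons, in which 21.6%, 16.2% and 13.4% of all clusters reached it. The limma F-test over the 4 groups called 0 of 7, with 1.93% of clusters called, and the smallest adjusted p was that of Insig1 (0.272). Among the direct comparisons, 0 of 7 passed between spironolactone plus lisinopril and prednisolone (0.822% of clusters), 0 of 7 between eplerenone plus lisinopril and prednisolone (0.608%), and 0 of 7 between the combinations (0%). In these 3 comparisons an unadjusted p under 0.05 was reached by 1, 1 and 0 of the 7, against 16.3%, 12.5% and 4.49% of all clusters. The comparisons share arrays, so their values are given side by side.

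**Figure D1:**
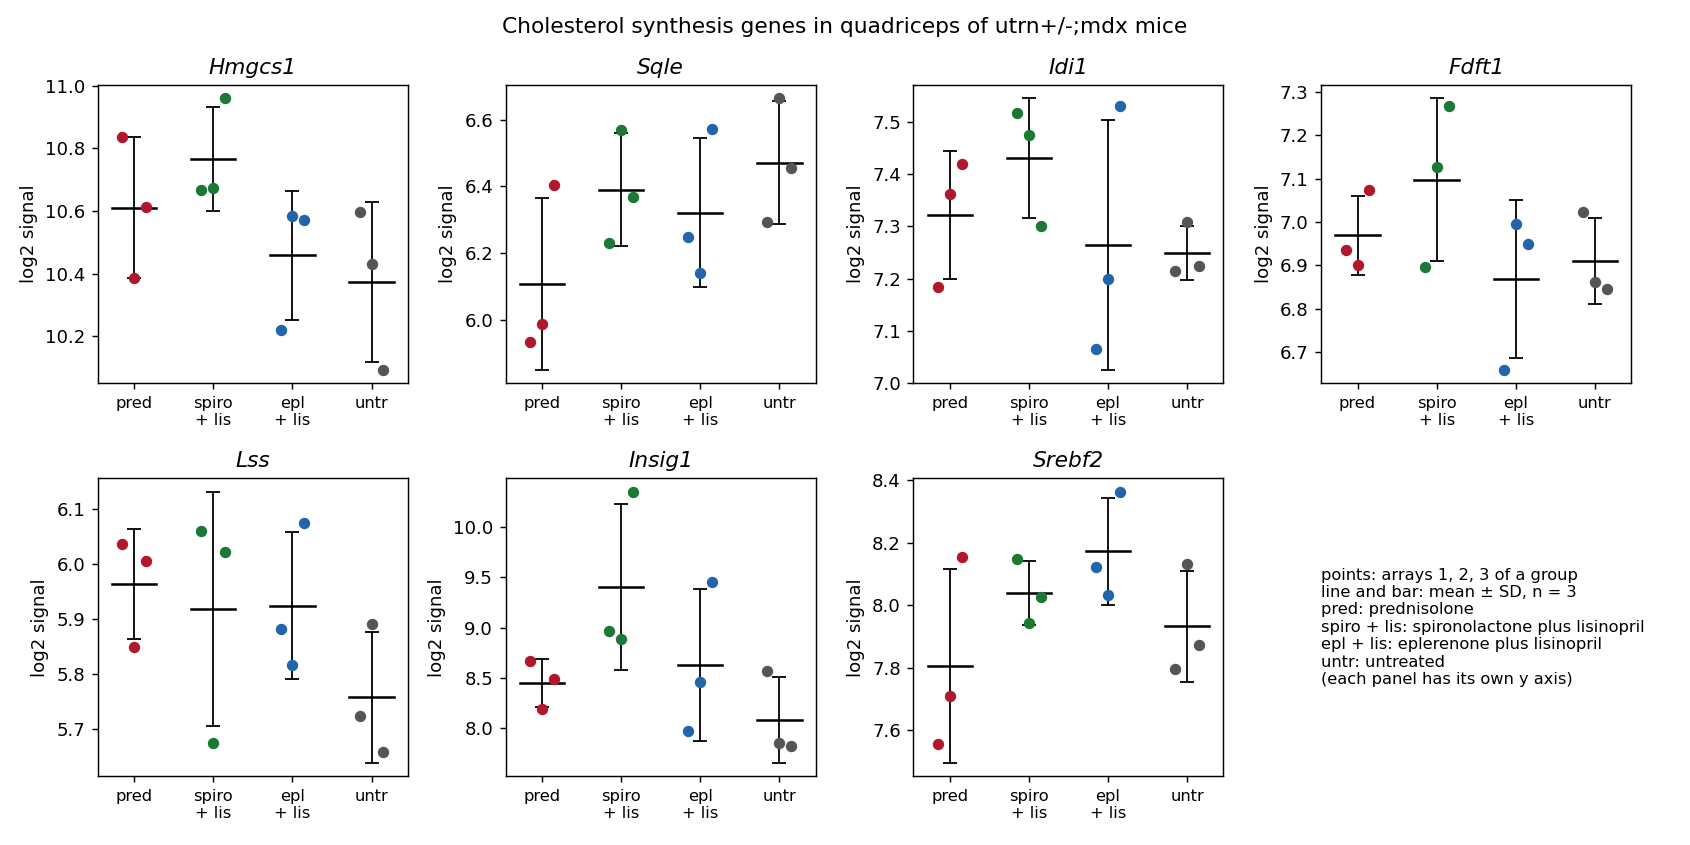
Log2 signal of the 7 genes (y axis, a separate scale for each gene) in the 4 groups (x axis), with a point per array and the mean ± SD of 3 arrays as line and bar. Insig1 has the widest spread, with spironolactone plus lisinopril array 3 at 10.35 and the other arrays of that group at 8.97 and 8.89.

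The control gene Insig1 showed the largest difference of the 7 and the largest spread between mice. Its log2 signal was 8.67, 8.19 and 8.49 with prednisolone, 8.97, 8.89 and 10.35 with spironolactone plus lisinopril, 7.98, 8.46 and 9.45 with eplerenone plus lisinopril, and 8.57, 7.85 and 7.82 in untreated muscle. All spironolactone plus lisinopril arrays lay above all untreated and all prednisolone arrays, while the eplerenone plus lisinopril arrays overlapped every other group. The difference of spironolactone plus lisinopril from untreated was 1.32 ± 0.43 (SE, 95% confidence interval 0.38 to 2.26), a 2.50-fold higher signal with an interval of 1.30 to 4.80, and it did not pass (limma adjusted p = 0.202). Array 3 of that group carried part of this value: without it the difference was 0.85, with an adjusted p of 0.296. Against prednisolone the same combination differed by 0.95 (0.01 to 1.90, limma adjusted p = 0.302). The eplerenone combination differed from untreated by 0.55 (adjusted p = 0.601) and prednisolone by 0.37 (adjusted p = 0.692), and the difference between the combinations was 0.77 (-0.17 to 1.72, limma adjusted p = 0.998). The residual SD of Insig1 was 0.607, higher than that of 99.2% of clusters.

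The other control gene, Srebf2, had its highest mean with eplerenone plus lisinopril and its lowest with prednisolone. Its log2 signal was 7.56, 7.71 and 8.15 with prednisolone, 8.15, 7.94 and 8.03 with spironolactone plus lisinopril, 8.12, 8.03 and 8.36 with eplerenone plus lisinopril, and 7.79, 8.13 and 7.87 in untreated muscle. All 4 groups overlapped. Eplerenone plus lisinopril against prednisolone gave 0.37 (0.02 to 0.71, limma adjusted p = 0.357). Against untreated the differences were -0.13 with prednisolone, 0.11 with spironolactone plus lisinopril and 0.24 with eplerenone plus lisinopril (adjusted p = 0.711, 0.752 and 0.522 in limma).

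Hmgcs1 encodes the cytosolic HMG-CoA synthase, which makes the precursor of mevalonate. Its log2 signal was 10.84, 10.38 and 10.61 with prednisolone, 10.67, 10.67 and 10.96 with spironolactone plus lisinopril, 10.22, 10.58 and 10.57 with eplerenone plus lisinopril, and 10.60, 10.43 and 10.09 in untreated muscle. Every spironolactone plus lisinopril array lay above every array of the eplerenone combination and of untreated muscle, and the prednisolone arrays overlapped all groups. The difference of spironolactone plus lisinopril from untreated was 0.39 ± 0.16 (SE, 0.04 to 0.75, 1.31-fold) and did not pass (limma adjusted p = 0.272). Leaving out untreated array 3 gave 0.25. The combinations differed by 0.31 (-0.05 to 0.67, limma adjusted p = 0.998). Prednisolone differed from untreated by 0.24 (adjusted p = 0.448) and the eplerenone combination by 0.09 (adjusted p = 0.853).

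Hmgcs1 and Insig1 were the 2 of 7 genes whose spironolactone plus lisinopril arrays all lay above the untreated ones, a state shared by 7.35% of all clusters in that direction. Insig1 alone of the 7 also lay wholly above prednisolone with that combination (10.2% of clusters), and Hmgcs1 alone wholly above the eplerenone combination (4.04%). With 3 arrays in each group, an exact permutation test of one gene cannot give a p below 0.1. No gene of the 7 had separated groups against untreated with prednisolone or with eplerenone plus lisinopril, where 26.7% and 16.9% of all clusters were separated in either direction. A fold of at least 2 was found for Insig1 with spironolactone plus lisinopril alone among the 7 genes and 6 comparisons, and 0.792% of clusters reached it in that comparison. The shares in the other 5 were 1.69% with prednisolone and 0.654% with eplerenone plus lisinopril against untreated, 0.546% and 0.694% for the spironolactone and eplerenone combinations against prednisolone, and 0.0822% between the combinations.

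Sqle, the squalene epoxidase that starts the conversion of squalene to sterols, had the lowest mean with prednisolone. Its mean over the 12 arrays, 6.32, was above that of only 57.1% of clusters. Its log2 signal was 5.93, 5.99 and 6.40 with prednisolone, 6.23, 6.57 and 6.37 with spironolactone plus lisinopril, 6.25, 6.14 and 6.57 with eplerenone plus lisinopril, and 6.29, 6.66 and 6.46 in untreated muscle. Prednisolone arrays 1 and 2 were the lowest of all 12, and array 3 lay within the untreated range. The difference of prednisolone from untreated was -0.36 ± 0.16 (SE, -0.71 to -0.01) and did not pass (limma adjusted p = 0.216). Spironolactone plus lisinopril differed from untreated by -0.08 and eplerenone plus lisinopril by -0.15 (limma adjusted p = 0.823 and 0.710).

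The remaining enzymes varied within narrow ranges. Idi1 encodes isopentenyl-diphosphate isomerase, which interconverts the isoprenoid building blocks. Its signal ran from 7.18 to 7.42 with prednisolone, from 7.30 to 7.52 with spironolactone plus lisinopril, from 7.07 to 7.53 with eplerenone plus lisinopril and from 7.21 to 7.31 in untreated muscle, so that all groups overlapped. Fdft1 encodes squalene synthase. Its signal was 6.93, 6.90 and 7.07 with prednisolone, 6.90, 7.13 and 7.27 with spironolactone plus lisinopril, 6.66, 6.995 and 6.95 with eplerenone plus lisinopril, and 7.02, 6.86 and 6.85 in untreated muscle, again overlapping. Lss encodes lanosterol synthase, which closes the sterol rings, and its mean over the 12 arrays, 5.89, was above that of only 51.8% of clusters. Its signal was 6.04, 5.85 and 6.00 with prednisolone, 6.06, 5.67 and 6.02 with spironolactone plus lisinopril, 5.88, 5.82 and 6.07 with eplerenone plus lisinopril, and 5.72, 5.89 and 5.66 in untreated muscle, with overlap between all groups. Against untreated, Lss gave 0.21, 0.16 and 0.17 in the 3 treatments in that order (limma adjusted p = 0.358, 0.510 and 0.567). The other 2 enzymes gave 0.07, 0.18 and 0.02 for Idi1 and 0.06, 0.19 and -0.04 for Fdft1.

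Ordered by group mean, spironolactone plus lisinopril was highest for Hmgcs1, Idi1, Fdft1 and Insig1, untreated for Sqle, prednisolone for Lss and eplerenone plus lisinopril for Srebf2. No neighbouring pair in these orders passed the test. The median difference of the 7 from untreated was 0.07 with prednisolone, 0.18 with spironolactone plus lisinopril and 0.09 with eplerenone plus lisinopril, beside medians of -0.01, -0.04 and -0.03 over all tested clusters. As each array was left out, the medians of the 7 ran from 0.02 to 0.12, from 0.11 to 0.21 and from 0.0032 to 0.19.

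**Figure D2:**
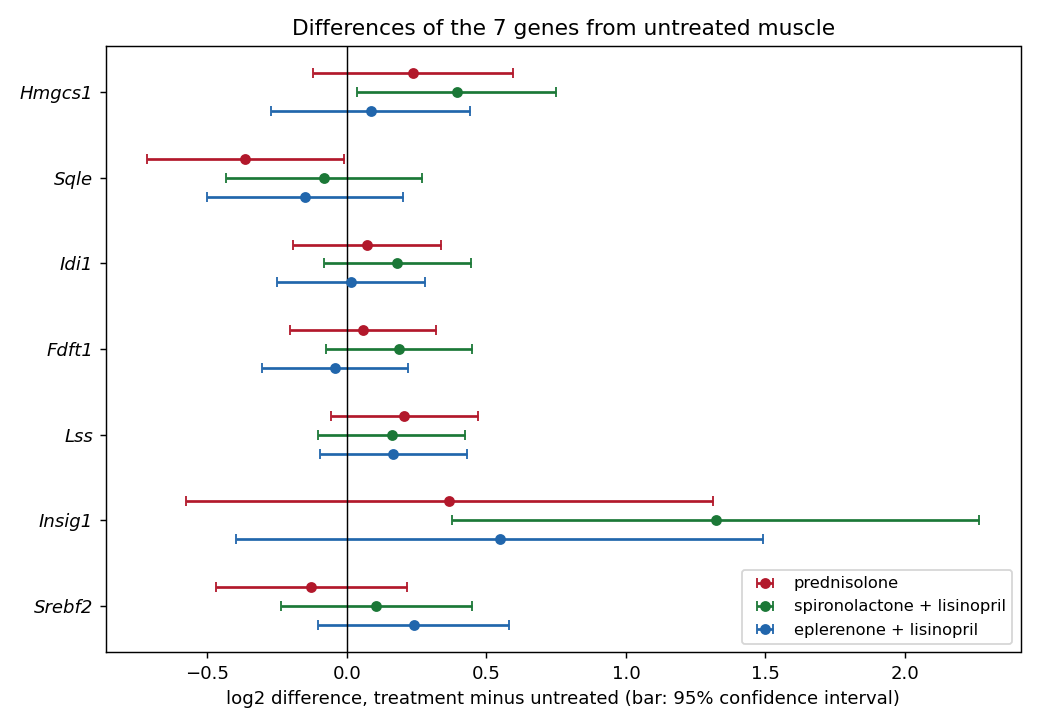
Log2 difference of each treatment from untreated muscle (x axis) for the 7 genes (y axis), as the estimate with its 95% confidence interval. The intervals of Insig1 and Hmgcs1 with spironolactone plus lisinopril and of Sqle with prednisolone leave out 0, and none of the 7 genes passed after adjustment.

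Part of the set varied together from mouse to mouse. Over the 12 arrays, Pearson r between pairs of the 7 genes ran from -0.17 to 0.80 with a median of 0.36, and 17 of 21 pairs were positive. The highest were Hmgcs1 with Insig1 (0.80), Hmgcs1 with Fdft1 (0.77) and Fdft1 with Insig1 (0.74), followed by Sqle with Srebf2 (0.65). The arrays share their groups and hybridisation, so these values are descriptions. With each gene centred on its own mean, the mean of the 7 was -0.06 ± 0.13 with prednisolone, 0.20 ± 0.15 with spironolactone plus lisinopril, -0.0047 ± 0.24 with eplerenone plus lisinopril and -0.13 ± 0.10 in untreated muscle (SD, n = 3 each). This mean is weighted towards Insig1, whose SD over the 12 arrays was 0.722, against 0.147 to 0.242 for the other genes. Without Insig1 the mean was -0.04 ± 0.13 with prednisolone, 0.10 ± 0.04 with spironolactone plus lisinopril, -0.0036 ± 0.16 with eplerenone plus lisinopril and -0.06 ± 0.10 in untreated muscle. Each gene's r with the mean of the other 6 ran from 0.18 (Sqle) to 0.73 (Insig1).

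Of 19409 other named genes, those most like this mean over the 12 arrays were Sc5d (r = 0.92), Arl14ep (0.88), Nsdhl (0.87), Prpsap2 (0.85) and Ddah2 (0.84), and 0.0979% of the named genes exceeded 0.8. With the mean of the 6 genes without Insig1, r was 0.74 for Sc5d, 0.75 for Arl14ep, 0.69 for Nsdhl, 0.82 for Prpsap2 and 0.72 for Ddah2, which ranked between 11 and 88, so the order depends on the weight of Insig1. Sc5d and Nsdhl encode enzymes of the steps after lanosterol. The signal of Sc5d was 9.87, 9.56 and 9.75 with prednisolone, 9.85, 9.96 and 10.29 with spironolactone plus lisinopril, 9.53, 9.69 and 10.02 with eplerenone plus lisinopril, and 9.78, 9.52 and 9.36 in untreated muscle. As with Insig1, its highest array was spironolactone plus lisinopril array 3. Among the most alike genes, Arl14ep and Prpsap2 ranged over only 0.21 and 0.30, against 0.93 for Sc5d, 0.99 for Nsdhl and 0.75 for Ddah2. The most opposite profiles were those of Rab25 (-0.95), Dspp (-0.91) and Ucma (-0.91), which without Insig1 had -0.96, -0.84 and -0.76. Their signals ran from 4.96 to 5.38, 4.10 to 4.55 and 5.06 to 5.62, near or below 5.24, the median of the cluster means. Such small ranges at low signal can be noise.

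Markers of adipocytes, which whole muscle can hold, varied with Insig1 and Hmgcs1. Of 12 listed markers 10 were measured, and 0 passed in any comparison. Their mean log2 signal was 12.01, 10.09 and 10.60 with prednisolone, 10.86, 10.01 and 12.53 with spironolactone plus lisinopril, 9.85, 10.47 and 10.75 with eplerenone plus lisinopril, and 10.16, 9.51 and 10.05 in untreated muscle. Prednisolone array 1 and spironolactone plus lisinopril array 3 were the highest. The log2 of their summed signal ran from 18.26 to 19.25, from 18.45 to 19.53, from 18.06 to 18.54 and from 17.94 to 18.42 in the same order of groups, and no marker was at 0. This sum rests mainly on Car3, whose mean log2 signal was 18.34 over the 12 arrays, against 14.69 for Fabp4, the next brightest marker.

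Across the 12 arrays, Insig1 and the marker mean had r = 0.78 (permutation p = 0.0103, adjusted over 7 relations 0.0361) and rho = 0.76 (permutation p = 0.00626, adjusted 0.0438). Without the 2 arrays farthest from the median r was 0.75, and with each group centred on its own mean it was 0.78. Hmgcs1 had r = 0.78 (permutation p = 0.00138, adjusted 0.00966) and rho = 0.69 (permutation p = 0.0171, adjusted 0.0598). Its r was 0.54 without those 2 arrays and 0.68 within groups. The other genes had r from -0.34 (Sqle) to 0.61 (Lss), with adjusted permutation p of 0.0526 or more. The permutations exchanged arrays between the groups, so their p-values do not set apart group differences shared by a gene and the markers. No p was computed for r within groups. Without those 2 arrays the differences of spironolactone plus lisinopril from untreated were 0.85 for Insig1 and 0.30 for Hmgcs1 (limma adjusted p = 0.328 and 0.418). The part of adipocyte RNA in these differences was not tested further.

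**Figure D3:**
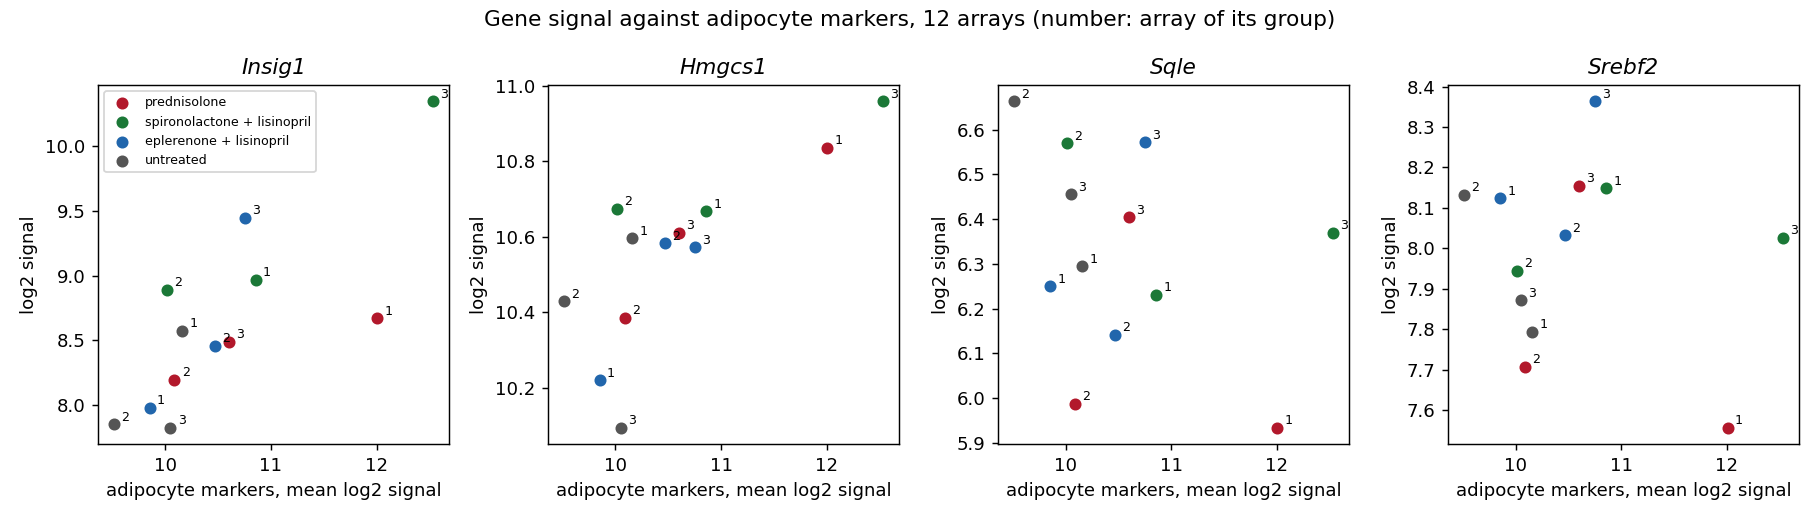
Log2 signal of Insig1, Hmgcs1, Sqle and Srebf2 (y axes) against the mean log2 signal of 10 adipocyte markers (x axis), with 12 arrays coloured by group and numbered within it. Insig1 and Hmgcs1 are high on spironolactone plus lisinopril array 3, where the markers are at 12.53, while Sqle and Srebf2 have r of -0.34 and -0.17.

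Other genes of cholesterol and fatty acid metabolism were read from 6 lists, of whose 61 genes 46 were measured. With prednisolone 4 rose and 1 fell of the 46 (10.9%, against 6.39% of all clusters, of which 3.22% rose and 3.17% fell), with spironolactone plus lisinopril 0 passed and with eplerenone plus lisinopril 0 passed, where 0.0822% and 0.0296% of all clusters passed. An unadjusted limma p under 0.05 was reached by 15 of the 46 with prednisolone (21.6% of all clusters), 10 with spironolactone plus lisinopril (16.2%) and 7 with eplerenone plus lisinopril (13.4%). No mevalonate enzyme passed (0 of 6), nor any enzyme after lanosterol (0 of 7). The smallest p of these lists belonged to Mvd (0.31) and Ggps1 (-0.16), and to Lbr (-0.40) and Hsd17b7 (-0.40), with prednisolone, with limma adjusted p of 0.141, 0.331, 0.131 and 0.151. With spironolactone plus lisinopril they belonged to Mvk (0.19) and Fdps (0.19), and to Dhcr7 (0.32) and Sc5d (0.48), with limma adjusted p of 0.317, 0.473, 0.194 and 0.218. With eplerenone plus lisinopril they belonged to Mvk (0.31) and Ggps1 (-0.11), and to Dhcr7 (0.27) and Nsdhl (0.32), with limma adjusted p of 0.235, 0.614, 0.287 and 0.461.

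Markers of several cell types passed in the same comparison of prednisolone with untreated muscle as the 5 genes described next. Lower were 2 of 10 macrophage, 2 of 8 neutrophil, 2 of 7 fibroblast, 1 of 7 endothelial and 1 of 7 Schwann cell markers, and 1 of 8 markers of regenerating fibres was higher. Of all clusters, 3.17% passed as lower and 3.22% as higher in that comparison. The log2 of the summed signal was 18.68 to 18.92 with prednisolone against 19.00 to 19.57 in untreated muscle for macrophage markers, 9.62 to 10.02 against 10.13 to 13.99 for neutrophil markers and 18.55 to 18.60 against 18.77 to 18.97 for fibroblast markers, with no overlap. For endothelial markers it was 13.56 to 13.75 with prednisolone against 14.10 to 15.16 in untreated muscle, also with no overlap. For Schwann cell markers it was 13.03 to 13.29 against 13.50 to 13.88, again with no overlap. For regenerating fibre markers it was 15.05 to 15.85 against 13.87 to 15.48, and the groups overlapped. The macrophage sum rests mainly on Lyz2, with a mean log2 signal of 18.58 against 15.24 for Cd68, the next brightest marker. The endothelial sum rests mainly on Cdh5, with 13.85 against 11.24 for Kdr. The mean log2 signal of the 7 endothelial markers was 9.70 to 9.88 with prednisolone and 9.69 to 10.79 in untreated muscle, with overlap. Of these 7 markers 2 were higher and 5 lower with prednisolone on average. The Schwann cell sum rests mainly on Pmp22, with a mean log2 signal of 13.44 against 4.92 to 6.37 for the other markers. Of the 7 Schwann cell markers 4 were higher and 3 lower with prednisolone on average, with a median difference of 0.03. Between spironolactone plus lisinopril and prednisolone, 2 of 7 fibroblast markers passed, both higher (0.45% of all clusters passed as higher), and none of the other lists' markers did. The part of these cell types in the differences was not tested.

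Among sterol sensing genes 1 of 7 passed. Erlin1 encodes an endoplasmic reticulum protein that binds cholesterol and takes part in degrading membrane proteins. It had 8.12, 7.94 and 8.14 with prednisolone, against 8.54, 8.86 and 8.43 in untreated muscle, and the groups did not overlap. Of all clusters, 13.3% lay wholly lower in that comparison. Erlin1 fell by 0.55 ± 0.11 (SE, limma adjusted p = 0.0182), and the call was lost without prednisolone array 1 or array 2, in a fit of the 6 arrays of both groups alone, or without the 2 arrays highest in adipocyte markers. A second cluster of Erlin1, with a lower mean signal, gave -0.24 with overlapping groups (limma adjusted p = 0.575). For the first cluster, differences ran from -0.64 to -0.42 as each array was left out. With the combinations the smallest p belonged to Erlin1 (-0.28) and Insig2 (0.20) for spironolactone plus lisinopril, and to Erlin1 (-0.33) and Scap (0.17) for eplerenone plus lisinopril (limma adjusted p = 0.267, 0.337, 0.265 and 0.410). The first cluster of Erlin1 also lay wholly below untreated with both combinations. It had 8.38, 8.36 and 8.26 with spironolactone plus lisinopril (13.1% of clusters wholly lower) and 8.36, 8.23 and 8.26 with eplerenone plus lisinopril (9.23%).

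Of 10 uptake and transport genes 2 passed. Vldlr, a receptor of the lipoprotein receptor family, had 11.27, 11.04 and 11.07 with prednisolone, against 10.46, 9.93 and 10.67 in untreated muscle. Mylip, which encodes the ubiquitin ligase that degrades lipoprotein receptors, had 11.18, 10.79 and 10.66 with prednisolone, against 10.34, 9.82 and 10.05 in untreated muscle. Every prednisolone array lay above every untreated one for both genes, a state shared by 13.4% of all clusters. Vldlr rose by 0.77 ± 0.19 and Mylip by 0.80 ± 0.21 (SE, limma adjusted p = 0.0354 and 0.0472). These calls held in 11 and 8 of 20 alternative settings. Both were lost with all clusters tested, in the fit of 6 arrays and without the 2 arrays highest in adipocyte markers. The Vldlr call was also lost under the replicate block, and without any 1 of the prednisolone arrays, untreated array 2 or spironolactone plus lisinopril array 2, with differences of 0.56 to 0.94 over all arrays left out. The Mylip call was also lost without any 1 of the prednisolone or eplerenone plus lisinopril arrays, untreated array 2 or 3, or spironolactone plus lisinopril array 1, with differences of 0.65 to 0.94. Mylip differed from untreated by 0.83 with spironolactone plus lisinopril and 0.76 with eplerenone plus lisinopril, which did not pass (limma adjusted p = 0.159 and 0.222). With these combinations Mylip had 11.11, 10.41 and 11.18, and 10.78, 10.96 and 10.75. Both groups also lay wholly above untreated (7.35% and 7.7% of clusters). The next smallest p belonged to Npc1 (-0.41) with spironolactone plus lisinopril and Lrp1 (-0.30) with eplerenone plus lisinopril (limma adjusted p = 0.296 and 0.418).

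Cyp27a1, the mitochondrial sterol 27-hydroxylase that makes an oxysterol and bile acid precursors, was the 1 of 7 genes of the oxysterol and efflux list to pass. Its signal was 9.89, 9.95 and 9.71 with prednisolone and 8.85, 8.54 and 8.90 with spironolactone plus lisinopril. It was 8.80, 9.10 and 9.26 with eplerenone plus lisinopril, and 9.18, 8.34 and 8.84 in untreated muscle. The prednisolone arrays lay above all arrays of every other group (13.4% of clusters against untreated, 13.8% against spironolactone plus lisinopril, 9.91% against eplerenone plus lisinopril). It rose by 1.07 ± 0.20 with prednisolone against untreated (SE, limma adjusted p = 0.0127), a call lost without prednisolone array 1 or array 2, in a fit of 6 arrays, or without the 2 arrays highest in adipocyte markers, with differences of 0.84 to 1.26 over the arrays left out. Spironolactone plus lisinopril was lower than prednisolone by a log2 difference of -1.09 ± 0.20 (SE, limma adjusted p = 0.0403, with 0.372% of clusters lower in that comparison), which passed in 8 of 20 alternative settings. That call was lost with all clusters tested, under the replicate block, without the 2 arrays highest in adipocyte markers, and without any 1 of the spironolactone plus lisinopril or prednisolone arrays, eplerenone plus lisinopril array 2 or 3, or untreated array 3, with differences of -1.16 to -0.98. Eplerenone plus lisinopril differed from prednisolone by -0.80 for Cyp27a1, which did not pass. Against untreated, the smallest p belonged to Apoe (-0.49) and Ch25h (-0.42) with spironolactone plus lisinopril, and to Ch25h (-0.55) and Cyp27a1 (0.27) with eplerenone plus lisinopril (limma adjusted p = 0.411, 0.430, 0.391 and 0.580).

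Of 9 fatty acid genes, Acss2, the acetyl-CoA synthetase that makes acetyl-CoA from acetate, passed. It had 8.05, 7.82 and 7.59 with prednisolone, 7.79, 7.67 and 7.82 with spironolactone plus lisinopril, 7.47, 7.70 and 7.82 with eplerenone plus lisinopril, and 7.15, 6.99 and 6.97 in untreated muscle. All treated arrays lay above all untreated arrays (13.4%, 7.35% and 7.7% of clusters for prednisolone, spironolactone plus lisinopril and eplerenone plus lisinopril singly). It rose by 0.78 ± 0.13 with prednisolone (SE, limma adjusted p = 0.00742), a call kept in 20 of 20 alternative settings. The combinations gave 0.73 and 0.63, which did not pass (limma adjusted p = 0.0755 and 0.134). The median difference of this list was 0.65 with prednisolone, 0.91 with spironolactone plus lisinopril and 0.61 with eplerenone plus lisinopril, on arrays whose adipocyte markers also varied as given above. These medians rest on single arrays: without prednisolone array 1 the first was -0.0097, without spironolactone plus lisinopril array 3 the second was 0.34, and without eplerenone plus lisinopril array 3 the third was 0.14.

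**Figure D4:**
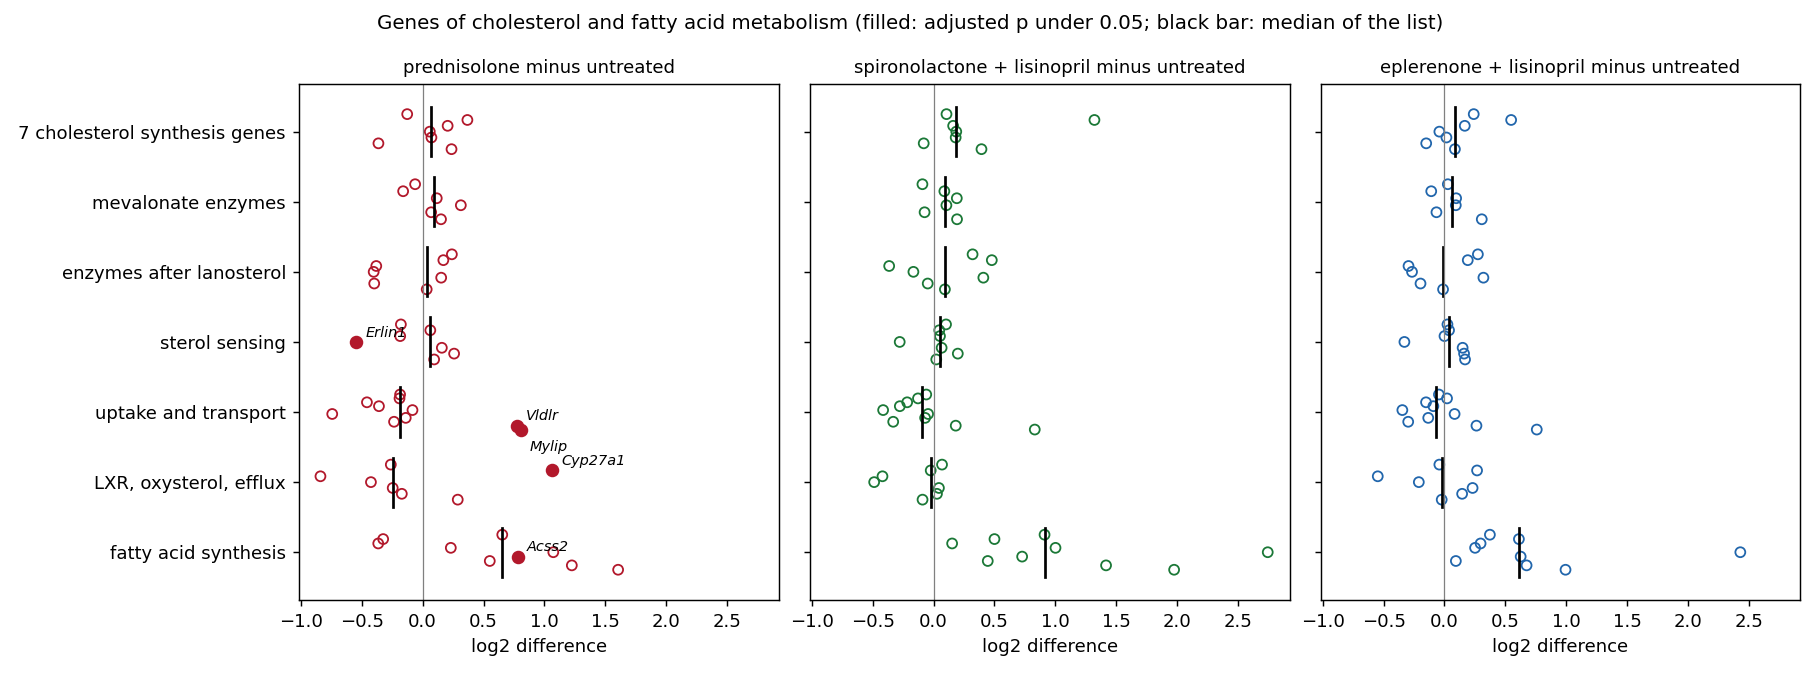
Log2 difference from untreated muscle (x axis) of the 7 cholesterol synthesis genes and of 6 lists of related genes (y axis), in a panel per treatment, with a point per gene, filled where the adjusted p was under 0.05, and a black bar at the list's median. With prednisolone 5 of the 46 listed genes are filled, and with either combination 0.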

How the data were processed

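The authors deposited log2 signals. Per the submitters' processing notes these came from RMA, with Affymetrix Expression Console and Transcriptome Analysis Console as the programs. For these programs no version is given in the sources used here, nor a genome build. Between 1.27% and 1.34% of values per array exceed 16, so the scale was changed at a step that the notes do not describe, and folds are folds on the deposited scale.

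Of 65587 clusters, 30412 had exactly 1 symbol in the probe table and were tested. The main model in limma 3.58.1 (R 4.3.3) had 1 mean per group over all 12 arrays (eBayes without trend, 8 residual degrees of freedom, median SE 0.129), with Benjamini-Hochberg adjustment over all these clusters in each comparison and a threshold of 0.05. The number of arrays limits the precision. The fit was tested on simulated data. All 7 genes were named in each comparison against untreated, together with the genes of each list past the threshold, or, in a list with none, the 2 of smallest p, and the 5 most and 3 least similar genes. The 7 genes and the lists were chosen with earlier results of these data known. Permutation p-values used 100000 resamples. Alternatives were quantile normalization, equal array medians, leaving out dim clusters, testing all clusters, an intensity trend, the 6 arrays compared, a replicate block, each array left out, and a fold of 2. Genes with several clusters were represented by the one with the highest mean. Added after seeing the data were leaving out the 2 arrays highest in adipocyte markers, the second clusters of Erlin1 and Scd1, list medians with each array left out, and the mean of the genes without Insig1. Same-numbered arrays of different groups deviated with r from -0.24 to 0.16 in 18 pairs, and differently numbered ones from -0.30 to 0.27 in 36 pairs. These values show no pairing by number, though they cannot exclude one.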

Additional observations from a re-analysis of the deposited data

How the results depend on the processing

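The count of cholesterol synthesis genes past the threshold was 0 in all 6 comparisons and the F-test under every tested alternative, leaving out each array included, and 1 (Insig1, spironolactone plus lisinopril against untreated) by a fold of 2 without a test. Of 840 alternative values of 42 differences, 0 passed (smallest adjusted p 0.0934, Sqle with prednisolone without prednisolone array 3), and 18 values of 11 differences, of size 0.18 or less, changed sign. Of the other listed genes, the 5 called with prednisolone became 3 with all clusters tested, 1 with the 6 arrays, 1 without the 2 arrays high in adipocyte markers, and 1 to 7 leaving out each array. The 0 called with spironolactone plus lisinopril became 0 to 1, with 1 without untreated array 1. The 1 called between spironolactone plus lisinopril and prednisolone became 0 with all clusters tested, 0 under the replicate block, 0 without the 2 arrays, and 0 to 1 leaving out each array. The 2 called by the F-test became 1, 0, 0 and 0 to 2 in the same settings. The replicate block gave 0 cholesterol synthesis genes, and the arrays showed no pairing by its numbers.

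Clusters called, leaving out each array, numbered 456 to 2643 with prednisolone (1942 with all arrays), 0 to 534 with spironolactone plus lisinopril (25), 0 to 432 with eplerenone plus lisinopril (9), 23 to 328 and 27 to 264 for these combinations against prednisolone (250 and 185), 0 between them (0) and 26 to 1271 by the F-test (588). In that order of comparisons, leaving out the 2 arrays gave 657, 169, 0, 17 and 39, and 68 by the F-test. The fit on 6 arrays gave 584, 0, 0 and 37 in the first 4. The replicate block gave 1, 2, 75 and 82 in the comparisons of the combinations, and 267 by the F-test. Leaving out dim clusters gave 534 and 336 against prednisolone and 1004 by the F-test, and testing all clusters gave 11 with spironolactone plus lisinopril against untreated and 115 against prednisolone. A fold of 2 gave 514, 241, 199, 166 and 211, and 25 between the combinations. Each of the 7 cholesterol synthesis genes had 1 cluster, so averaging clusters was not run for them.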

Other observations

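Scd1 and Fasn, fatty acid synthesis genes of which Fasn was named after its values were seen, varied widely between mice of each treated group. The SD in untreated muscle was 0.067 for Scd1 and 0.66 for Fasn, against 0.93 to 1.95 and 1.49 to 2.82 with the treatments. Scd1, the stearoyl-CoA desaturase, had 17.74, 13.84 and 15.79 with prednisolone, 17.68, 16.06 and 18.64 with spironolactone plus lisinopril, 16.23, 17.10 and 18.10 with eplerenone plus lisinopril, and 14.78, 14.65 and 14.72 in untreated muscle. Both combinations lay wholly above untreated, by 2.74 and 2.43, and neither passed (limma adjusted p = 0.201 and 0.288). Of all clusters, 7.35% and 7.7% lay wholly above untreated in these comparisons. A second cluster of Scd1, with a lower mean signal, gave 3.97 and 3.26 (limma adjusted p = 0.216 and 0.334), also without overlap. Fasn, the fatty acid synthase, had 14.91, 9.67 and 10.46 with prednisolone, 11.95, 9.64 and 14.57 with spironolactone plus lisinopril, 10.00, 10.44 and 12.77 with eplerenone plus lisinopril, and 10.84, 9.76 and 9.64 in untreated muscle. Its highest arrays were prednisolone array 1 and spironolactone plus lisinopril array 3, which were also the highest in adipocyte markers.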
